A study of Mus musculus with 3 samples.

Results

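Prg2, Cpa3, Hdc, Siglecf, Ear2 and Ear3 are genes of the granules and surface of mast cells and eosinophils, read here in mouse bone marrow-derived dendritic cells. They were chosen by their intensity differences between these same 3 arrays, as seen in an earlier analysis, so their levels and differences are given as a description. All probe sets annotated with a single gene symbol equal to a member were taken. This found 6 probe sets of 5 genes, among 18193 genes with such a probe set and 45101 probe sets in all. Hdc had 2 probe sets, and Prg2, Cpa3, Siglecf and Ear3 had 1 each. Ear2 had no probe set with its symbol alone and was not analysed here.

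The 3 groups were dendritic cells kept for 24 h with PTX at 100 ng/mL, with 1 µg/mL of LPS (the endotoxin of Gram-negative bacteria, sensed through Toll-like receptor 4), or with PBS, the control. The labels do not spell out PTX. All cells were grown from the marrow of female mice aged 6 weeks with GM-CSF, a myeloid growth factor, at 20 ng/mL, and nonadherent cells were taken on day 7. The strain is labelled C57BL/7 for the PTX sample and C57BL/6 for the LPS and PBS samples. Each group held 1 array and the labels do not state which animals the cultures came from, so no difference has a replicate check and no test was possible. Such nonadherent cultures are a mixture rather than a sorted population, and the array averages all cells. Fewer cells of a type and less RNA per cell cannot be told apart in these values.

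Mast cells and eosinophils store ready-made effector proteins in cytoplasmic granules and release them on activation. Mast cell granules hold proteases and histamine bound to serglycin proteoglycan, and eosinophil granules hold strongly basic proteins and ribonucleases that are toxic to parasites and to tissue. Several of these genes are not confined to granulocytes: Siglecf also marks alveolar macrophages of the mouse, which depend on GM-CSF, and Hdc can be induced in macrophages and dendritic cells.

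Promoter stretches are shown for the members with a value here that had an entry among the RefSeq promoters (build GRCm38.p6), so that the genes high with LPS, Cpa3 and Hdc, can be read beside Siglecf, which was low there. Each is the 250 bases before a RefSeq start site, written 5′ to 3′ on the gene's strand. Capitals mark GATAA, a core of the sites bound by GATA factors, on either strand. The stretch of Cpa3 lies on chromosome 3 (chr3:20242182-20242431, minus strand), that of Hdc on chromosome 2 (chr2:126618679-126618928, minus strand) and that of Siglecf on chromosome 7 (chr7:43351091-43351340, plus strand).
Cpa3: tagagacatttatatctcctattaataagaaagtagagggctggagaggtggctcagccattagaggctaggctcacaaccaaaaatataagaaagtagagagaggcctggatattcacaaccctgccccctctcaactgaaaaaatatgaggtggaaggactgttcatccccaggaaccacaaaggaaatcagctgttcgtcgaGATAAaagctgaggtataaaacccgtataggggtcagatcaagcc
Hdc: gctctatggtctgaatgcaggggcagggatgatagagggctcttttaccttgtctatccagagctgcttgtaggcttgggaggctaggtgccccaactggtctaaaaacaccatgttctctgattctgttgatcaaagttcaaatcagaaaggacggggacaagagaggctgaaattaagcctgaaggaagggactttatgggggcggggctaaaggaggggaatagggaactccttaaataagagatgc
Siglecf: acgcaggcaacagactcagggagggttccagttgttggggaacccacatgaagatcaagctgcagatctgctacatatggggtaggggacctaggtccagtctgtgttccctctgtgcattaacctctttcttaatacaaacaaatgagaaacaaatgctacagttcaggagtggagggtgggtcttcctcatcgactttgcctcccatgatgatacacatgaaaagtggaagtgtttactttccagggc

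GATAA was found once in the Cpa3 stretch, at bases -45 to -41 counted from the start site, and was not found in those of Hdc and Siglecf. Of 32536 different promoter stretches of this length, 22.5% held it. The E-box CANNTG, searched on both strands, occurred 2 times for Cpa3, 1 time for Hdc and 6 times for Siglecf, and 66.2% of all stretches held it. The AP-1 pattern TGANTCA was in 0 of these 3 stretches and in 6.73% of all. The STAT pattern TTCNNNGAA was in 0 of the 3 and in 7.04% of all. No match overlapped that of another motif, and a match describes the letters alone.

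The arrays were not at a common level. Taken over every probe set, the PTX array had a median intensity of 87.0, the LPS array 65.4 and the PBS array 85.8. A gene counted as measured when its brightest probe set (by mean log2 value) reached an intensity of 78.9, the median of all values, on at least 1 array. This left 12299 genes, and all 5 granule genes with a probe set were among them. Differences are on the log2(intensity + 16) scale, where 1 is a 2-fold difference and dim readings are pulled towards each other. The share of higher genes among those at least 2-fold apart depended on the scaling. In LPS against PBS it was 33.3% as deposited, 45.6% with quantile normalization, 58.1% with median centring and 18.1% with centring on control probe sets. In PTX against LPS it was 68.7% as deposited, 53.2% with quantile normalization, 40.5% with median centring and 85.6% with centring on control probe sets. The median of all genes in LPS against PBS moved with it, from -0.35 (control probe sets) through -0.08 (as deposited) to 0.27 (median centring), so the granule genes are also given relative to that median.

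The granule genes fell into 2 patterns. Prg2, Cpa3 and Hdc were high on the LPS array alone, between 4.83 and 10.9 times the PBS intensity. Siglecf and Ear3 were highest on the PBS array and lower after both stimuli, Siglecf most with LPS and Ear3 most with PTX. In LPS against PBS 3 of the 5 genes passed 2-fold upwards and 2 downwards, where 6.50% and 13.0% of all measured genes did. In PTX against PBS 3 were at least 2-fold lower and 0 higher, where 2.37% and 3.04% of all genes were. In PTX against LPS 4 were at least 2-fold lower and 0 higher, where 6.24% and 13.7% of all genes were. The members were chosen on these contrasts, so nothing is read from the counts. The comparisons with PBS share 1 PBS array.

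**Figure D1:**
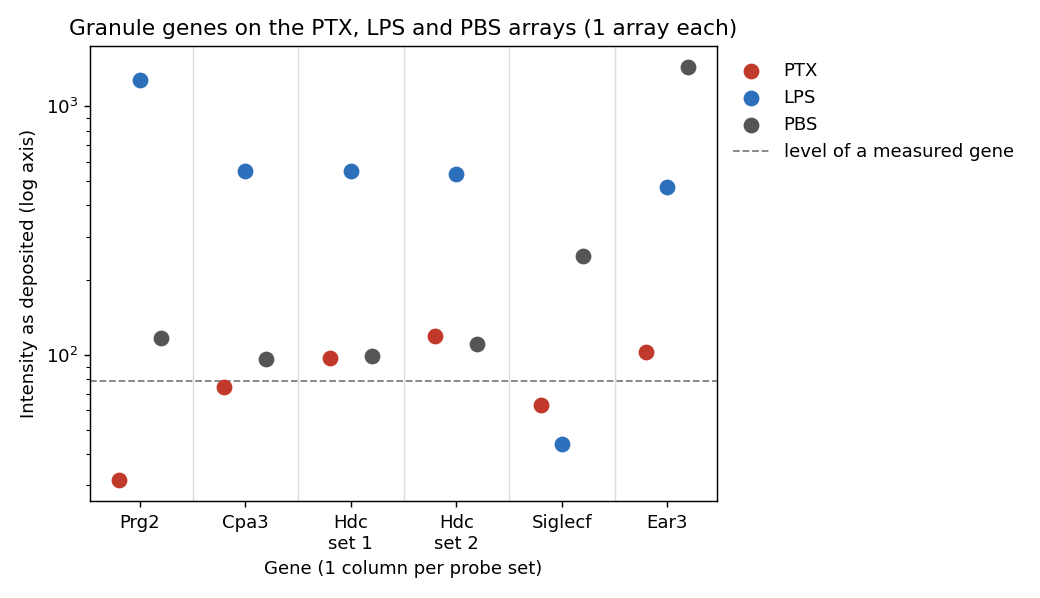
Deposited intensity (log axis) of each probe set of the 5 granule genes on the PTX, LPS and PBS arrays, 1 point per array and no error bars because each group had 1 array. Prg2, Cpa3 and both Hdc probe sets are high on the LPS array, and Siglecf and Ear3 on the PBS array; heights are comparable within a column only.

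Prg2 encodes eosinophil major basic protein, the main protein of the eosinophil granule core. It read 31.4 with PTX, 1274 with LPS and 117 with PBS. It was thus below the level of a measured gene with PTX and well above it with LPS. The log2 difference was 3.28 in LPS against PBS (10.9 times on the intensity scale) and -1.49 in PTX against PBS, where PBS read 3.73 times PTX. In PTX against LPS it was -4.77, the widest of any granule gene in any comparison. With a pseudocount of 64 the difference of PTX against PBS was -0.92, inside 2-fold, since both readings are dim. Relative to the median of all genes, over 5 scalings, Prg2 lay between 3.22 and 3.37 in LPS against PBS and between -1.50 and -1.44 in PTX against PBS.

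Prg3, the paralogue that lies next to Prg2 on chromosome 2, encodes another eosinophil major basic protein. It read 22.2 with PTX, 36.3 with LPS and 26.8 with PBS, below the level of a measured gene on every array. Epx, the eosinophil peroxidase gene, read 24.2, 76.2 and 33.8 in the same order, also below that level throughout. Both read highest with LPS, as Prg2 did, with log2 differences of 0.29 (Prg3) and 0.89 (Epx) in LPS against PBS, within 2-fold and at intensities too low for a firm value. Of the 5 other genes of the eosinophil list with a probe set, 2 were measured: Rnase2a, given with Ear3, and Alox15, a lipoxygenase of the eosinophil cytoplasm rather than a granule protein, which read 109 with PTX, 89.1 with LPS and 119 with PBS.

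Cpa3 encodes mast cell carboxypeptidase A, a protease stored in mast cell granules. It read 74.2 with PTX, 549.6 with LPS and 96.3 with PBS. Its log2 difference was 2.33 in LPS against PBS (5.71 times) and -0.32 in PTX against PBS, so that the LPS array stood alone and PTX lay within 2-fold of PBS. PTX against LPS gave -2.65. Over 5 scalings Cpa3 lay between 2.39 and 2.43 above the median of all genes in LPS against PBS.

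Of the 12 other mast cell proteases and serglycin genes with a probe set, 4 were measured. In LPS against PBS 0 of these were at least 2-fold higher, 1 was lower and 3 were within 2-fold, and in PTX against PBS all 4 were within 2-fold. Their median log2 difference was 0.15 in LPS against PBS and 0.19 in PTX against PBS, where that of all genes was -0.08 and 0.01, and the sign of both list medians differed between processing choices. Srgn, the serglycin core protein that dendritic cells also make, read 8397 with PTX, 12614 with LPS and 8187 with PBS. Ndst2, an enzyme of heparin synthesis in mast cells, read 622, 317 and 393 in that order (-0.30 in LPS against PBS). Mcpt4, a mast cell chymase, read 91.6, 112 and 69.2 in that order, so its 3 readings lay close together around the measured level. Tpsg1, a membrane-bound tryptase, read 82.4 with PTX, 30.8 with LPS and 113 with PBS (-1.46 in LPS against PBS). Cma1, a chymase, read 31.6 with PTX, 46.8 with LPS and 22.2 with PBS. Tpsb2, a tryptase, read 56.4, 70.5 and 57.5 in the same order. Neither reached the measured level on any array.

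Hdc encodes histidine decarboxylase, the enzyme that makes histamine. Its brighter probe set read 119 with PTX, 536 with LPS and 111 with PBS. The other read 97.7, 550.0 and 99.7 in the same order. Both probe sets thus placed the LPS array about equally far above the others, with log2 differences of 2.12 and 2.29 in LPS against PBS. In PTX against PBS they were 0.09 and -0.02, which differ in sign and lie near 0. In PTX against LPS they were -2.03 and -2.31. Both names end in _s_at, the suffix for probes shared by several transcripts. Relative to the median of all genes the brighter probe set lay between 2.17 and 2.21 in LPS against PBS over 5 scalings.

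Other genes of the histamine pathway were lower or within 2-fold with LPS. Of 7 other genes of histamine storage, breakdown and reception with a probe set, 5 were measured. In LPS against PBS 0 of them were at least 2-fold higher, 3 were lower and 2 were within 2-fold. Of all measured genes 6.50% were higher and 13.0% lower there. The count of lower histamine genes ranged from 2 to 3 over the processing choices. The median of these 5 genes was -1.05, where that of all genes was -0.08. It lay between -1.31 and -0.53 over 11 processing choices, the reported setting included. Hnmt, which methylates and so inactivates histamine, read 424 with PTX, 185 with LPS and 535 with PBS (-1.45 in LPS against PBS). Aoc1, the diamine oxidase that degrades histamine outside cells, read 159 with PTX, 70.7 with LPS and 164 with PBS (-1.05). Hrh3, a histamine receptor best known from neurons, read 153, 23.3 and 141 in the same order (-2.00). Hrh2, a histamine receptor of stomach and immune cells, read 113, 82.3 and 81.0. Hnmt, Aoc1 and Hrh3 were low on the LPS array alone and within 2-fold of PBS with PTX. Slc18a2, the vesicular transporter that loads histamine into mast cell granules, read 23.7, 31.6 and 27.3 and was below the measured level on every array.

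**Figure D2:**
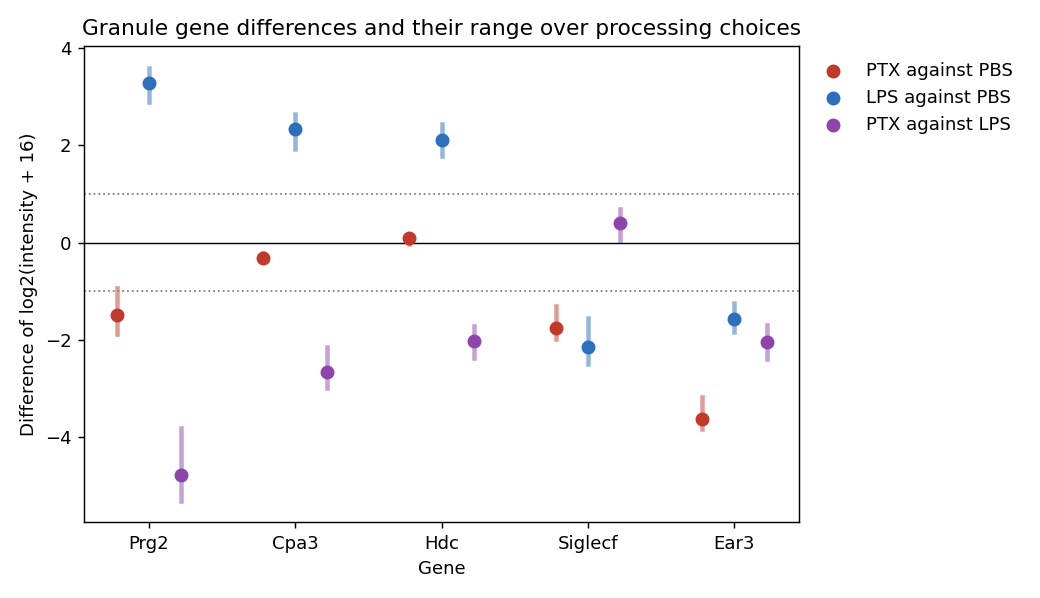
Log2 difference (vertical axis) of each granule gene in PTX against PBS, LPS against PBS and PTX against LPS; points are the reported values with a pseudocount of 16, and bars run from the lowest to the highest value over the processing choices, other pseudocounts included. Dotted lines mark 2-fold: Prg2, Cpa3 and Hdc are above it in LPS against PBS under each choice, and the bar of Prg2 in PTX against PBS crosses it.

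Siglecf encodes an inhibitory sialic acid-binding receptor of mouse eosinophils and alveolar macrophages. It read 63.1 with PTX, 43.9 with LPS and 250.2 with PBS. Only the PBS array was above the level of a measured gene. The log2 difference was -1.75 in PTX against PBS (PBS read 3.97 times PTX) and -2.15 in LPS against PBS (PBS read 5.69 times LPS). PTX against LPS gave 0.40, within 2-fold. Relative to the median of all genes, over 5 scalings, Siglecf lay between -1.76 and -1.73 in PTX against PBS and between -2.10 and -1.96 in LPS against PBS. With the filter raised to the 75th percentile Siglecf no longer counted as measured.

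Other Siglec genes differed in direction. Of 6 other measured members of the family, 3 were at least 2-fold higher, 1 was lower and 2 were within 2-fold in LPS against PBS, and 1 was higher and 5 were within 2-fold in PTX against PBS. Siglec1, the macrophage sialoadhesin, read 242 with PTX, 268 with LPS and 17.8 with PBS, so it was low where Siglecf was high. Of its other probe sets, 1 read 238, 72.4 and 23.1 in that order and 1 read 97.6, 93.2 and 83.9, so the last of these did not show the difference. Siglece, an inhibitory receptor of myeloid cells, read 31.7, 214 and 32.3. Cd33, another member of the family, read 516, 1952 and 853. Cd22, a receptor best known from B cells, read 360.5, 91.5 and 204. It was the 1 lower gene in LPS against PBS, at -1.04, and its other probe set gave -0.996, just inside 2-fold. The count of lower Siglec genes there ranged from 0 to 1 over the processing choices. Siglecg, the gene that follows Siglecf on chromosome 7, read 195, 187 and 187, within 2-fold throughout.

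Ear3 belongs to the eosinophil-associated ribonucleases, a rapidly diversified mouse branch of the RNase A superfamily. It read 103 with PTX, 476 with LPS and 1446 with PBS. The arrays were thus ordered PTX, LPS, PBS from low to high, each step over 2-fold. The log2 difference was -3.61 in PTX against PBS (PBS read 14.0 times PTX), -1.57 in LPS against PBS (PBS read 3.04 times LPS) and -2.04 in PTX against LPS. Relative to the median of all genes, over 5 scalings, Ear3 lay between -3.79 and -3.61 in PTX against PBS and between -1.66 and -1.47 in LPS against PBS. The name of its probe set ends in _x_at, the suffix for probes that can match related transcripts. Its reading may therefore include, or come wholly from, other members of this gene family, such as Ear2, and the part of each was not tested. Ear3 itself had no entry in the RefSeq gene table (GRCm38.p6) used here, while Ear2 had one.

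Rnase2a, listed under its older name Ear11, is a further eosinophil-associated ribonuclease, and its probe set has no such suffix. It read 542 with PTX, 850.1 with LPS and 2070 with PBS, and so had the same order of arrays as Ear3. Its log2 difference was -1.90 in PTX against PBS and -1.27 in LPS against PBS. Rnase2b, formerly Ear5, read 28.5 with PTX, 32.5 with LPS and 52.6 with PBS, below the measured level on every array. Of the 5 measured RNase A genes other than Ear3, Rnase2a was the 1 with this order of arrays, which 9.09% of all measured genes had. Rnase6, an antimicrobial ribonuclease of monocytic cells, read 577 with PTX, 56.2 with LPS and 325 with PBS, and Rnase4 read 1105, 414 and 874 in that order. Ang4, an angiogenin, read 96.0, 23.8 and 82.3. Its other probe set read 24.4, 19.8 and 24.5 in that order (-0.18 in LPS against PBS), below the measured level. The call of Ang4 as lower with LPS thus rests on 1 of 2 probe sets. Of the 5 measured family members other than Ear3, 1 was at least 2-fold lower and 4 were within 2-fold in PTX against PBS. In LPS against PBS 4 were at least 2-fold lower and 1 was within 2-fold, with a median of -1.27 (-0.08 for all genes). The count of lower genes ranged from 1 to 4 over the processing choices, and 13.0% of all measured genes were lower there. The 1 lower gene in PTX against PBS was Rnase2a.

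**Figure D3:**
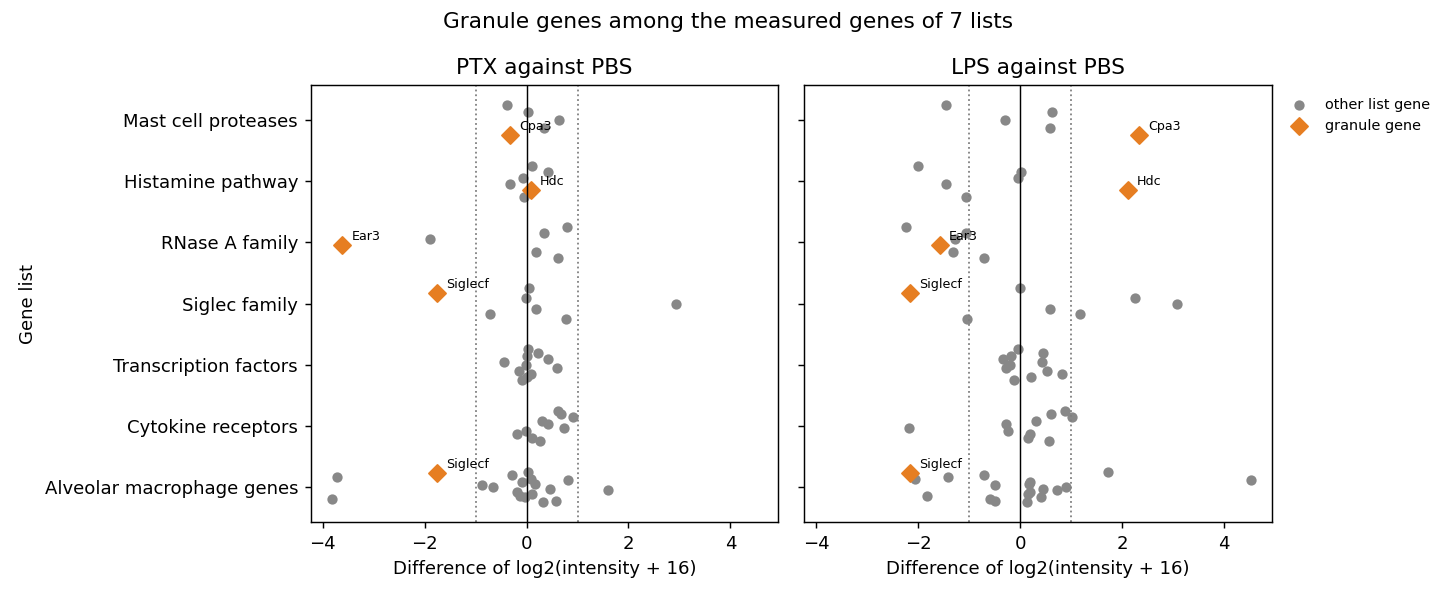
Log2 difference (horizontal axis) of every measured gene in 7 gene lists (rows), in PTX against PBS on the left and LPS against PBS on the right; orange diamonds are the granule genes, grey points the other list genes, and dotted lines mark 2-fold. In LPS against PBS Cpa3 (2.33) lies to the right of the other genes in the mast cell protease row and Hdc (2.12) in the histamine row; in PTX against PBS Ear3 (-3.61) lies to the left of the others in the RNase A row.

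Markers of mast cells, basophils and eosinophils were read on the same arrays. Among 16 mast cell markers with a probe set other than Cpa3 and Hdc, 6 reached the measured level with PTX, 6 with LPS and 4 with PBS. The lowest, Mrgprb1 with PTX, read 13.0, below the measured level of 78.9. No deposited value is under 1, so a reading above 0 does not show that a marker was expressed. Their summed intensity was 9766 with PTX, 17213 with LPS and 7377 with PBS, mostly from Fcer1g, an Fc receptor chain that dendritic cells also make, which read 6438, 14719 and 4954 in that order. Fcer1a, the IgE-binding receptor chain of mast cells and basophils, read 16.2 with PTX, 24.1 with LPS and 16.2 with PBS. Ms4a2, its beta chain, read at most 72.4 in either of its 2 probe sets on any array. Kit, the stem cell factor receptor of mast cells, read 92.7 with PTX, 114 with LPS and 54.9 with PBS in its brighter probe set, near the measured level. Of the 8 measured mast cell markers 1 was at least 2-fold higher, 0 were lower and 7 were within 2-fold in LPS against PBS, with a median of 0.50 (-0.08 for all genes; 0.20 to 0.82 over the processing choices). The 1 higher gene was Fcer1g (1.57). In PTX against PBS 1 was higher, Hpgds, and 7 were within 2-fold, with a median of 0.36.

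Of the 6 eosinophil markers other than Prg2 and Siglecf, 2 reached the measured level on each array. Their summed intensity was 5048 with PTX, 7942 with LPS and 3144 with PBS, of which Adgre1, which macrophages and dendritic cells in culture also express, gave 4834, 7695 and 2898. Ccr3, the eotaxin receptor, read 29.3, 24.8 and 33.9, and Il5ra, the receptor chain for the eosinophil growth factor interleukin 5, read 30.1, 20.2 and 32.8. Both are defining eosinophil receptors and both were below the measured level on all 3 arrays. Of 10 basophil markers other than Cpa3, 5 reached the level on each array. Their summed intensity was 1506 with PTX, 4574 with LPS and 1681 with PBS, of which Il6, a cytokine of many cell types, gave 181, 2974 and 568. Il3ra, Gata2 in its brighter probe set and Itga2b (130, 237 and 149), an integrin chain, were also highest with LPS. Il3ra was nearly as high with PTX (466) as with LPS (497), and the other Gata2 probe set was lowest with LPS. Il13, the remaining measured basophil marker, was lowest with LPS, with 258 with PTX, 152 with LPS and 218 with PBS. Of the 5 measured basophil markers 2, Il6 and Il3ra, were at least 2-fold higher, 0 were lower and 3 were within 2-fold in LPS against PBS, with a median of 0.82 (0.47 to 1.10 over the processing choices). In PTX against PBS 1, Il6, was lower and 4 were within 2-fold, with a median of 0.08. The basophil and mast cell list medians were thus above 0 in LPS against PBS under each choice, as Cpa3 and Hdc were. So were the medians of the dendritic cell and macrophage markers (0.31 to 0.89) and of the other Siglec genes (0.58 to 1.20). Those of the other histamine and RNase A genes were below 0 under each choice. Mcpt8, the basophil protease, read 35.0, 74.6 and 38.6. The part of granulocytes in the granule gene readings was not tested.

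Of the dendritic cell and macrophage markers, all 14 reached the measured level with PTX and with LPS and 13 did with PBS, and their summed intensity was 48199, 59023 and 36570 in that order. In LPS against PBS 5 were at least 2-fold higher, 0 were lower and 9 were within 2-fold. The median there was 0.57 (0.31 to 0.89 over the processing choices). In PTX against PBS 3 were higher and 11 were within 2-fold, with a median of 0.31. Fcgr1, an Fc receptor, read 3247 with PTX, 3112 with LPS and 457 with PBS. Mertk read 1841, 609 and 524 in that order (1.78 in PTX against PBS and 0.21 in LPS against PBS). Cd74, the invariant chain of MHC class II, read 7057 with PTX, 10839 with LPS and 6291 with PBS. Itgax, which encodes the dendritic cell integrin CD11c, read 1294, 1691 and 2383. Flt3, a growth factor receptor of dendritic cells and their precursors, read 253, 181 and 62.1, below the measured level with PBS. The list also holds macrophage markers, so it does not separate dendritic cells from macrophages in these cultures.

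**Figure D4:**
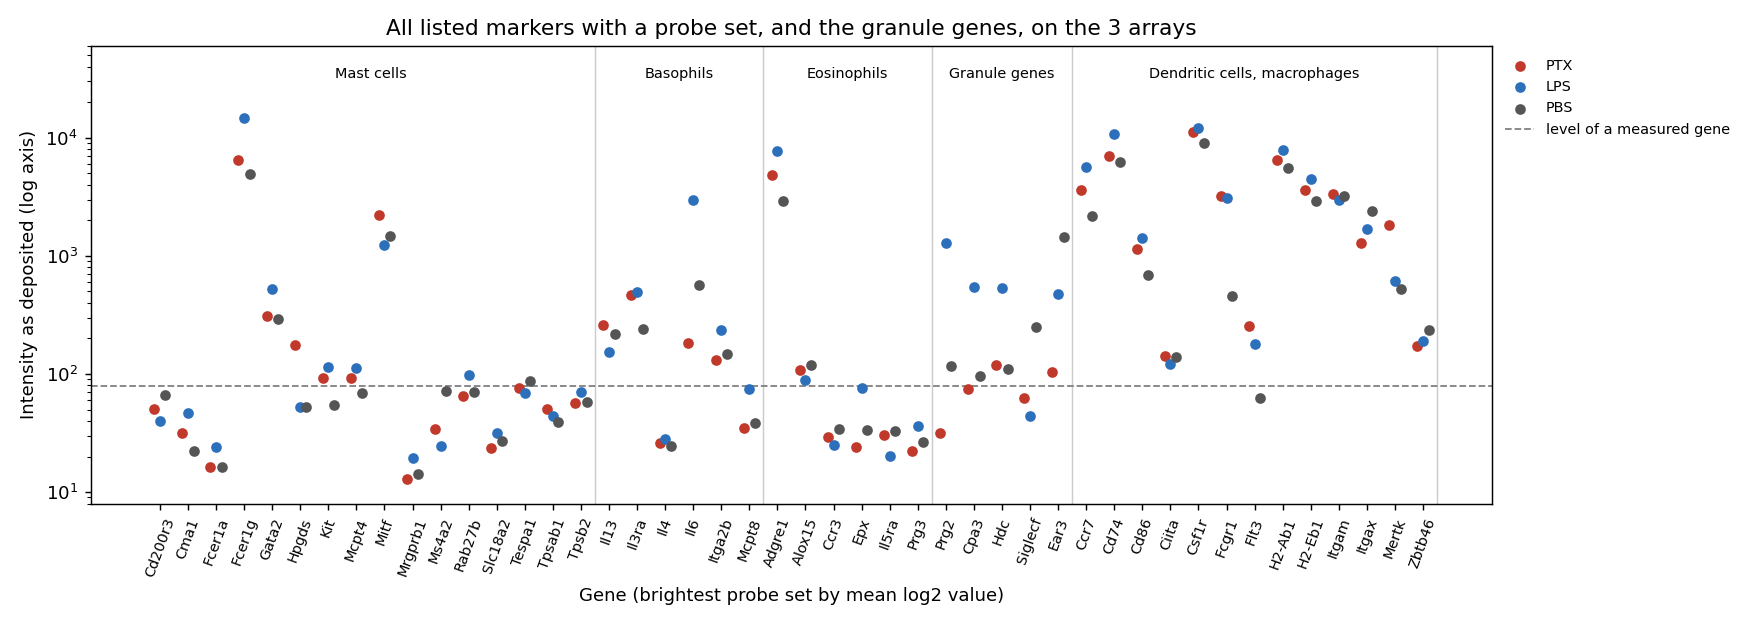
Deposited intensity (log axis) of every listed marker with a probe set (mast cells, basophils, eosinophils, and dendritic cells with macrophages) and of the 5 granule genes, 1 point each for the PTX, LPS and PBS arrays; the dashed line is the level of a measured gene, 78.9. Arrays are comparable within a gene only: Fcer1g (14719), Il6 (2974), Prg2, Cpa3 and Hdc have their highest point on the LPS array, while Fcer1a, Ccr3 and Il5ra stay under the line on each array.

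By their brightest probe set, all 11 measured transcription factors of the mast cell and eosinophil lineages were within 2-fold in both comparisons with PBS, with a median of 0.01 in PTX against PBS and -0.04 in LPS against PBS, signs that differed between processing choices. Gata1, a factor of eosinophils and mast cells, read 45.6 with PTX, 35.0 with LPS and 49.7 with PBS, below the measured level. Gata2, which acts in mast cell and basophil precursors, read 308 with PTX, 523 with LPS and 290 with PBS in its brighter probe set. Its other probe set read 295, 150.1 and 316 in that order, so the probe sets disagreed on the direction with LPS. Mitf, a factor of mast cells and macrophages, read 2241, 1225 and 1484 in its brighter probe set (-0.27 in LPS against PBS) and 346, 66.4 and 341 in the other (-2.12). Xbp1, a factor of secretory cells, read 3917, 4585 and 3360 in the brightest of its 4 probe sets (0.45) and 164, 651 and 165 in the dimmest (1.88). Id2, a factor of dendritic cells and other lineages, read 4691, 7507 and 5190. Gata2, Mitf and Xbp1 thus each had a probe set past 2-fold in LPS against PBS that the brightest did not match.

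By their brightest probe set, receptors for the growth factors and lipid mediators of these cells were mostly within 2-fold as well. Of 10 measured, 10 were within 2-fold in PTX against PBS, and in LPS against PBS 1 was at least 2-fold higher, 1 was lower and 8 were within 2-fold. Il3ra, the interleukin 3 receptor chain, read 466 with PTX, 497 with LPS and 239 with PBS, just past 2-fold with LPS (1.01) and just short of it with PTX (0.92). Cysltr1, a cysteinyl leukotriene receptor, read 1642, 203 and 980 in that order (-2.18 in LPS against PBS). Its other probe set read 794, 301 and 433 (-0.50), within 2-fold, so the 1 lower call of this list rests on 1 of 2 probe sets. Il4ra, the interleukin 4 receptor chain, read 634, 606 and 393 in its brightest probe set (0.60 in LPS against PBS). Another read 119, 502 and 80.5 in that order (2.42), and the last gave 0.18. Il13ra1, an interleukin 13 receptor chain, gave 0.31 in its brightest probe set and 1.16, 1.04, 0.58 and -1.95 in the others. The probe sets of both genes thus disagreed on passing 2-fold with LPS. Csf2rb, the shared receptor chain through which GM-CSF acts, read 8499, 11097 and 9707, all within 2-fold.

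Siglecf and Ear2 are also genes of alveolar macrophages, which arise under GM-CSF. Of 18 other measured genes of that list, 1 was at least 2-fold higher, 2 were lower and 15 were within 2-fold in PTX against PBS, with a median of 0.00. In LPS against PBS 2 were higher, 3 were lower and 13 were within 2-fold, with a median of 0.17, and both medians changed sign between processing choices. Car4, a carbonic anhydrase, read 278 with PTX, 2736 with LPS and 4122 with PBS, and Plet1, a surface protein, read 30.7, 212 and 595 in that order. Marco, a scavenger receptor, read 494, 6632 and 273, the widest difference of the list in LPS against PBS (4.52), and Mrc1, the mannose receptor, read 472, 94.0 and 441 (-2.05). Car4 and Plet1 had the order of arrays that Ear3 had, with PTX lowest and PBS highest, and Marco and Mrc1 did not. Of the 18 genes 3 had that order, the other being Itgax, where 9.09% of all measured genes did. Of the 2 other Plet1 probe sets, the array order was shared by 1 (31.5, 109 and 201) and was absent from the other (127, 161 and 122). Fabp4, a fatty acid-binding protein, ran the other way, with 2749 with PTX, 1488 with LPS and 900.0 with PBS. Chil3, a secreted chitinase-like protein, read 12932, 17534 and 13152, within 2-fold throughout.

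For each granule gene the 5 measured genes nearest to it in the pair of log2 differences from PBS were found, over 3 arrays. For Prg2 the nearest was Il6, at a distance of 0.92 on the log2 scale, followed by Adgb, Fst, Itm2a and Mir155hg (up to 1.21). For Cpa3 they were Rcl1, Mylk, Zbtb32, Twnk and Wdr46, at distances of 0.09 to 0.12. For Hdc they were Scube1, Kcnab3, Klhl6, Ndrg2 and 1700097N02Rik, at 0.04 to 0.08. For Siglecf they were Ccnf, Kif2c, Cdkn2c, Ect2 and Kif11, at 0.10 to 0.16. For Ear3 the nearest was Plet1 at 0.18, and then came Mrpl38, Car4, Ccn3 and Hspa1b at 0.93 to 1.16. The nearest gene was thus farther away for Prg2 than for the other granule genes.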

How the data were processed

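Per the labels' protocols, total RNA (3 µg) of each culture was copied into cRNA carrying biotin, for Affymetrix arrays. The values deposited by the authors are linear intensities, 1 for each probe set on each array, and none is under 1. How they summarized, background-corrected and scaled them is not given in the sources used here. Of 45101 probe sets, 64 were controls, 34945 had 1 gene symbol, 932 had several and 9160 had none listed in the platform annotation. Symbols in 14 gene lists were matched to it, 124 of 144 with a probe set, 2 of them through an older name in the RefSeq gene table (GRCm38.p6).

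Intensities were used as deposited, as log2(intensity + 16), with Python 3.11.15 and pandas 2.3.3. A gene took the values of its brightest probe set, by mean log2 over the arrays. Genes at least 2-fold apart were counted over all measured genes. With 1 array per group there is no error, p-value or test, and the number of arrays limits the precision. The granule genes and the lists were chosen with earlier results of these data known. All granule genes are named with every probe set, from each list up to 4 measured genes with the largest differences plus defining markers of mast cells, eosinophils and basophils, and for each granule gene its 5 nearest genes. Probe sets other than the brightest, and other list genes named for contrast, were picked after their values were seen. The computation was tested on simulated data, in which bright readings of 200 genes with 1 probe set each were multiplied by known factors. Changes in dim readings and the choice among probe sets were not part of that test. The 11 alternatives were pseudocounts of 1 and 64, 4 other scalings, 2 filters and 3 ways to pick a probe set.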

Additional observations from a re-analysis of the deposited data

How the results depend on the processing

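Of 66 recomputed counts of granule genes past 2-fold, 63 kept their value or stayed within 1.5 times of it. The count at least 2-fold lower in LPS against PBS was 1 in place of 2 with the filter at the 75th percentile, which drops Siglecf, and 1 when probe sets ending in _x_at, _s_at or _a_at were left out, which drops Ear3. That last choice also left 2 in place of 4 genes at least 2-fold lower in PTX against LPS, since Hdc and Ear3 then had no probe set. A fall from 3 genes to 2 is within 1.5 times and so is not among these changes. The lower count in PTX against PBS lost Prg2 with a pseudocount of 64, Siglecf with the raised filter and Ear3 with that last choice. The same choice took Hdc from the higher count in LPS against PBS. Of 156 recomputed differences of single granule genes, 154 kept their sign and their side of 2-fold. The others were Prg2 in PTX against PBS with a pseudocount of 64 (-0.92) and Hdc in PTX against PBS, which changed from 0.09 to -0.02 with the probe set of the highest single value. No difference of at least 2-fold changed sign. The medians of the other genes of lists with at least 3 measured changed sign or crossed 2-fold in 65 of 357 recomputations, so list medians near 0 have no settled direction. No paired analysis was possible because each group held 1 array. The readings of Prg2 with PTX (31.4) and of Siglecf with PTX (63.1) and LPS (43.9) are below the level of a measured gene, which limits the precision of their folds.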

Other observations

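Genes of neutrophil granule proteins, another granule family of the marrow, were not all low in these cultures. Of 10 measured, 1 was at least 2-fold higher, 1 was lower and 8 were within 2-fold in PTX against PBS, and 2 were higher, 3 lower and 5 within 2-fold in LPS against PBS. Of all measured genes 3.04% were higher and 2.37% lower in PTX against PBS, and 6.50% and 13.0% in LPS against PBS. Over the processing choices the LPS against PBS counts ranged from 1 to 2 higher and from 0 to 3 lower. Camp, the cathelicidin gene of secondary granules, read 37.7 with PTX, 259 with LPS and 70.7 with PBS, the same array order as Prg2. Lcn2, a siderophore-binding protein that LPS is known to induce in many cells, read 2779, 18575 and 1217 in that order. S100a9 read 1083, 1924 and 3877, with PTX lowest and PBS highest, as Ear3 had. The primary granule genes Mpo (44.5, 51.6 and 38.6) and Elane (42.8, 34.7 and 33.8) were below the measured level on every array, and Prtn3, another of them, was above it with 166, 177 and 168. Cd177, a neutrophil surface protein of granule membranes, read 85.9, 37.5 and 96.6.

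Hpgds, which makes prostaglandin D2 in mast cells and other cells, was the only mast cell marker at least 2-fold higher in PTX against PBS, with 176 with PTX, 52.9 with LPS and 52.6 with PBS.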
